A study of Mus musculus with 9 samples.

Results

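Interferon-stimulated genes are the genes that cells switch on when interferon binds its receptor. RNA levels of 42 of them, out of 43629 genes in the count tables, were followed in cultured cells of embryonic mouse heart after siRNA against Dnmt3a or Dnmt3b. The members are known interferon-stimulated genes, named with earlier results of these data in view, and each name was matched to its Ensembl identifier in GENCODE (GRCm38). All 42 passed the filter on low counts.

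The cells came from E13.5 ventricles of CD-1 mice, an outbred strain, and tissue was pooled within a litter before digestion. DNMT3a siRNA cultures received a pool of 4 siRNAs against Dnmt3a, DNMT3b siRNA cultures a pool of 4 against Dnmt3b, and negative siRNA cultures (called control) a non-targeting siRNA. All were transfected after 48 h of culture with 0.012 pmol of siRNA in the lipid reagent RNAiMAX and harvested 72 h later, so the controls also carried siRNA and lipid, and no untransfected culture was analysed here. At harvest the cells were sorted on magnetic beads for VCAM1, which embryonic cardiomyocytes carry on their surface, and each group had 3 libraries, numbered 1 to 3. No label ties a library to its own litter or culture. The p-values therefore rest on the spread among these 9 libraries, some or all of which may be technical.

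Type I interferon acts through the receptor chains Ifnar1 and Ifnar2, the kinases Jak1 and Tyk2, and a complex that holds Stat2 and Irf9 and binds a short promoter element, the interferon-stimulated response element (ISRE). Many of the genes it induces sense foreign RNA, bind or degrade it, or stop viruses from entering or leaving cells. Several of the induced genes, among them Stat2, Irf9, Irf7 and the RNA sensors, encode parts of the pathway itself, so the genes of the group tend to move together in many tissues.

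Promoter windows with matches to the ISRE core are printed because this element is what the group is known to share, although the choice of members did not use it. The windows come from RefSeq promoters (GRCm38.p6, 250 bases before to 50 after the start) and read along the strand of the gene. Capitals mark each match to GAAA, any 2 bases, then GAAA, searched on both strands, so that a match on the other strand reads TTTC, 2 bases, TTTC. Isg15 (chr4:156200850-156200921, minus strand), Oas1a (chr5:120907502-120907573, minus strand) and Bst2 (chr8:71537559-71537630, minus strand) have overlapping matches that form 3 or more repeats of GAAA. Ifit1 (chr19:34640763-34640834, plus strand), Ifit3 (chr19:34583359-34583430, plus strand) and Ifit3b (chr19:34607755-34607826, plus strand) have 2 separate matches each. Oas3 (chr5:120777694-120777765, minus strand), the member that fell with DNMT3a siRNA, and Rsad2 (chr12:26456532-26456603, minus strand) have 1 match each.
Isg15: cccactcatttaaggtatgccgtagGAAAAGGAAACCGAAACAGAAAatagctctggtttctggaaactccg
Oas1a: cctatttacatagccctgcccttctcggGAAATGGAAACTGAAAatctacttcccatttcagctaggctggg
Bst2: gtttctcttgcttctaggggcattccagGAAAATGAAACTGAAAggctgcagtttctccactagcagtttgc
Ifit1: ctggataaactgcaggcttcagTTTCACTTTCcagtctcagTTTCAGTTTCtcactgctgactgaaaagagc
Ifit3: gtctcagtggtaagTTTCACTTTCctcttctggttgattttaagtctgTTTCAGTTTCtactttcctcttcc
Ifit3b: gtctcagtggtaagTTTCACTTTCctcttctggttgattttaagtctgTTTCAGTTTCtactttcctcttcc
Oas3: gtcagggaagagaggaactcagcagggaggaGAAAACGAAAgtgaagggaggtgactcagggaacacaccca
Rsad2: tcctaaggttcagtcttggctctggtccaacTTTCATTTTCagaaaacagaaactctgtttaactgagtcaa

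The core was found in promoters of 18 of the 31 members with a RefSeq entry (58.1%), against 3.99% of 27025 genes. Among 60 other interferon-induced genes with an entry, 29 held it (48.3%). A further GAAA repeat at the same spacing, which overlaps the core motif, was present in 5 of 31 members (Isg15, Oas1a, Bst2, Gbp3 and Irgm1), against 0.133% of all genes. The element of the interferon gamma response known as GAS (TTC, any 3 bases, GAA, searched on both strands) occurred in 7 of 31 members (22.6%), against 9.55% of all genes. The 72-base windows of Ifit3 and Ifit3b, which are neighbours, differed at 0 bases. The 11 members without an entry were Zbp1, Mx2, Ifi27, Dhx58, Usp18, Iigp1, Mx1, Parp9, Rtp4, Parp14 and Oas2. A match to these letters is a description of the promoter, not a shown binding site.

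**Figure D1:**
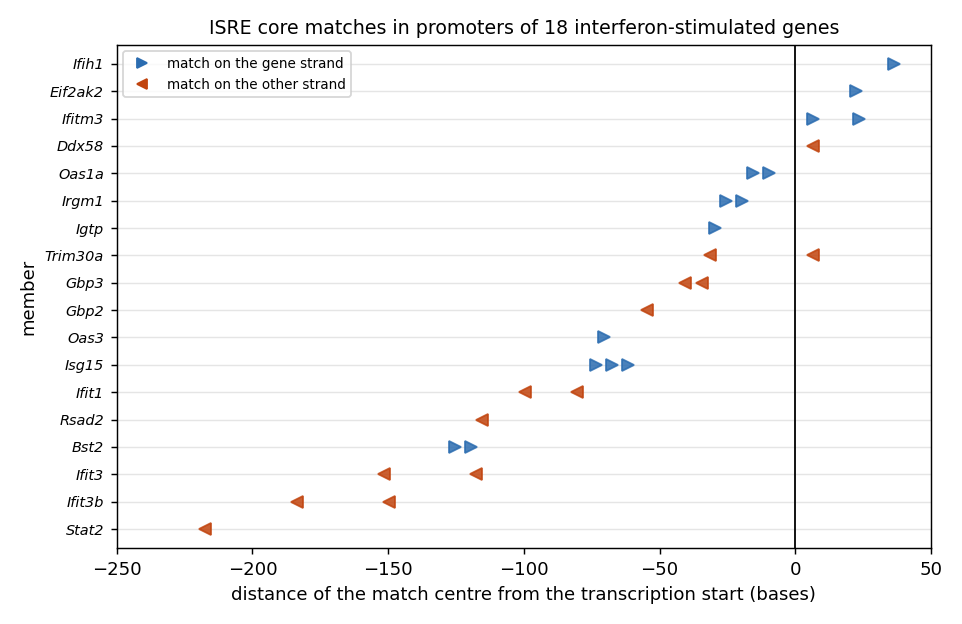
Distance of each ISRE core match from the transcription start (x axis, bases) in promoters of 18 members (rows); arrowheads point right for a match on the strand of the gene and left for the other strand. Of 29 matches, 23 lay upstream of the start, and those of Ifitm3, Eif2ak2, Ifih1 and Ddx58 and 1 of Trim30a lay just downstream of it.

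Between 27852412 and 35896018 reads were counted in genes per library, and levels are given as counts-per-million (CPM, scaled by TMM library factors). Dnmt3a stood at 40.3, 52.9 and 46.3 CPM after DNMT3a siRNA, against 232, 270 and 275 CPM in controls, and Dnmt3b at 1.17, 2.43 and 1.51 CPM after DNMT3b siRNA, against 4.32, 4.26 and 4.33 CPM in controls. The siRNA against Dnmt3a left 17.97% of Dnmt3a mRNA (log2 fold change -2.48), and that against Dnmt3b left 39.6% of Dnmt3b mRNA (-1.34), both past the test. Cardiomyocyte markers (14 genes, among them Myh6 and Tnnt2) summed to 5441 to 7286 CPM in DNMT3a siRNA libraries and 7078 to 8437 CPM in DNMT3b siRNA libraries, against 2429 to 3195 CPM in controls. Fibroblast markers, dominated by collagen genes, summed to 36495 to 57400 CPM across the libraries, so the sorted cells also held collagen-expressing cells. Of 10 fibroblast markers, 4 fell with DNMT3a siRNA (Pdgfra, Dcn, Tcf21 and Fbln1) and 3 with DNMT3b siRNA (Dcn, Tcf21 and Ddr2). Of 10 epicardial markers, 4 fell and 1 rose with DNMT3a siRNA, and 1 fell with DNMT3b siRNA. Of 10 endothelial markers, 0 passed with DNMT3a siRNA (1 at an unadjusted p under 0.05 in edgeR), and 1, Kdr, rose with DNMT3b siRNA, where their median log2 fold change was 0.95. Vcam1, the gene of the sort marker, had 217, 212 and 258 CPM after DNMT3a siRNA and 307, 275 and 268 CPM after DNMT3b siRNA, against 276, 281 and 361 CPM in controls. Its log2 fold changes were -0.42 (adjusted p = 0.0510 in edgeR) and -0.11 (adjusted p = 0.632). With library number as a block it fell with DNMT3a siRNA (adjusted p = 0.0234). In such bulk samples, fewer cells of a type and less RNA per cell cannot be told apart.

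Transcripts of all 42 members were detected in every library, controls included. Per kilobase of exon, and as a mean over the 9 libraries, Ifitm3 was highest at 402 CPM, followed by Bst2 at 188 CPM and Isg15 at 71.3 CPM. Ifitm3 blocks the fusion of viruses with cell membranes, Bst2 (tetherin) holds budding viruses on the cell surface, and Isg15 is a ubiquitin-like protein attached to other proteins. The lowest were Zbp1 at 0.698 CPM, Mx1 at 0.379 CPM and Oas3 at 0.121 CPM per kilobase. The ligands themselves were barely seen. Of 13 interferon genes listed, 0 had enough reads to test, 4 had 0 counts in all 9 libraries, and their sum stayed between 0.0325 and 0.327 CPM in any library. Ifnb1, the first interferon made by many infected cells, reached at most 0.0649 CPM, in DNMT3a 1.

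The members varied together from library to library within each group. Their summed level was 2967, 1202 and 2856 CPM in DNMT3a 1, 2 and 3, 2130, 1041 and 1290 CPM in DNMT3b 1, 2 and 3, and 2915, 1371 and 3507 CPM in control 1, 2 and 3. DNMT3a 2, DNMT3b 2, DNMT3b 3 and control 2 were thus low, DNMT3b 1 was in between, and the other 4 libraries were high. DNMT3a 2 was the lowest DNMT3a library for 42 of 42 members (35.4% of all tested genes), and DNMT3b 1 the highest DNMT3b library for 42 of 42 (41.1% of all tested genes). Control 2 was the lowest control for 41 of 42 (36.5% of all tested genes), with Ifi27 as the exception. Control 3 was the highest of the 9 libraries for 35 members, and DNMT3b 2 the lowest for 31.

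The ratio of the highest to the lowest library of a group had a median over members of 3.34 after DNMT3a siRNA, 2.66 after DNMT3b siRNA and 3.60 in controls. Over all tested genes the same medians were 1.25, 1.197 and 1.28. The ratio exceeded 2 for 33 of 42 members in DNMT3a siRNA libraries (11.6% of all tested genes), 28 in DNMT3b siRNA libraries (8.79%) and 36 in controls (14.4%). The members are not 42 separate readings, since they varied together from library to library. Also, 16 of them lie in 7 groups of neighbouring genes with gaps of at most 100 kb. The largest is the Ifit cluster, with Ifit2, Ifit3, Ifit3b and Ifit1 at chr19:34550694-34650009 on GRCm38. Counts of near-identical copies are uncertain: 57.6% of the 50-base words of Oas1a also occur in other genes, as do 51.2% of those of Ifit3 and 45.003% of those of Ifit3b.

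**Figure D2:**
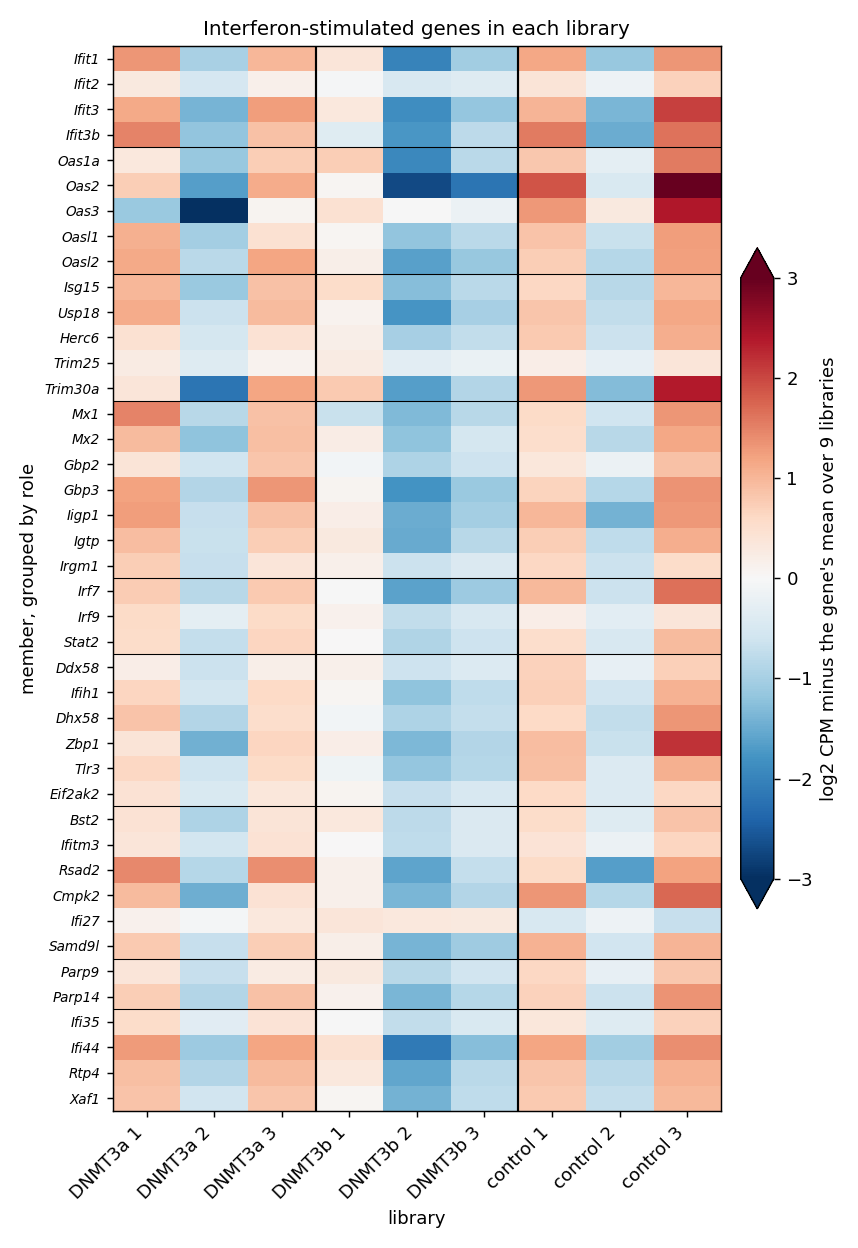
Each row is a member and each column a library. Colour is log2 CPM minus the mean of the gene over the 9 libraries and saturates at 3 log2 units, and lines separate groups (vertical) and roles (horizontal). The columns DNMT3a 2, DNMT3b 2, DNMT3b 3 and control 2 are blue for nearly all members, and Ifi27 runs against the pattern.

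Markers of macrophages and other leukocytes, cells that respond strongly to interferon, did not follow the same order of libraries. Their 18 genes summed to 11.98, 24.6 and 26.0 CPM in DNMT3a 1, 2 and 3, 27.5, 47.8 and 61.6 CPM in DNMT3b 1, 2 and 3, and 28.8, 71.8 and 80.8 CPM in control 1, 2 and 3. Control 1 was thus high in interferon-stimulated genes and the lowest control in these markers, and control 2 was the lowest control in interferon-stimulated genes but well above control 1 in the markers. The defining marker Ptprc (CD45) ran from 0.195 to 0.622 CPM in DNMT3a siRNA libraries, 0.461 to 1.23 CPM in DNMT3b siRNA libraries and 0.557 to 1.59 CPM in controls, and Cd163 was at or near 0 in all libraries. Of 17 markers tested, 4 fell with DNMT3a siRNA (14 with library number as a block) and 0 with DNMT3b siRNA, where 0 also had an unadjusted p under 0.05 in edgeR. The part of these cells in the members' levels was not tested.

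**Figure D3:**
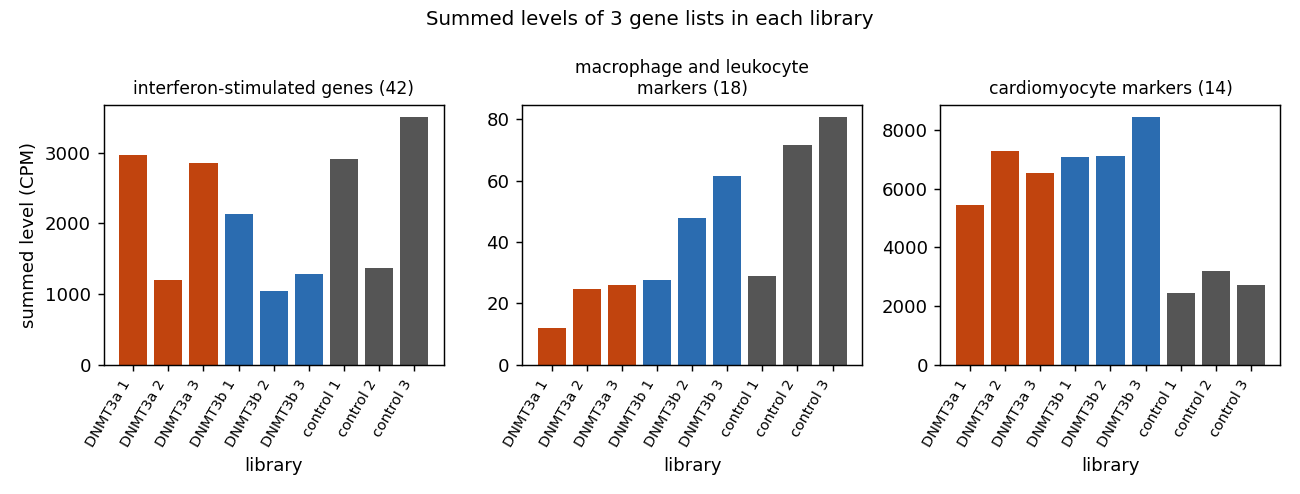
Bars give the summed level (CPM) of the 42 members, of 18 macrophage and leukocyte markers and of 14 cardiomyocyte markers in each library. The members are lowest at 1041 CPM in DNMT3b 2, the leukocyte markers at 11.98 CPM in DNMT3a 1 and the cardiomyocyte markers at 2429 CPM in control 1.

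With DNMT3a siRNA, 1 member rose, 1 fell and 40 did not pass the test. An unadjusted p under 0.05 was given to 2 of 42, the same 2 genes, against 4127 of 16561 genes tested. The one that rose was Ifi27, a small mitochondrial protein, and the one that fell was Oas3, which makes the oligoadenylates that activate RNase L. Among all 16561 genes tested, 4.87% rose and 5.22% fell in this comparison, so the share of members called (1 of 42 each way) was no higher than that background. The median log2 fold change over members was -0.18, against 0.02 over all genes, and 33 of 42 lay below 0. The direction rested on single libraries: without DNMT3a 2 the median was 0.10 with 29 members above 0, and without control 3 it was 0.15 with 27 above 0.

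Ifi27 stood at 47.8, 41.9 and 54.4 CPM after DNMT3a siRNA and 56.5, 54.4 and 53.6 CPM after DNMT3b siRNA, against 31.3, 39.3 and 26.9 CPM in controls. Every knockdown library was above every control. The log2 fold change was 0.56 ± 0.14 (SE, adjusted p = 0.0247, edgeR quasi-likelihood test) with DNMT3a siRNA and 0.75 ± 0.14 (adjusted p = 0.00937) with DNMT3b siRNA, higher in 3 of 3 libraries in each. DNMT3a siRNA and DNMT3b siRNA did not differ past the threshold (-0.19 ± 0.13, adjusted p = 0.409). Across the controls its order was the reverse of most members, with control 2 highest. The call with DNMT3a siRNA was lost on leaving out DNMT3a 1 (adjusted p = 0.0717), DNMT3a 3 (0.0901), DNMT3b 3 (0.0525), control 1 (0.0706) or control 3 (0.0825), and with only the DNMT3a siRNA and control libraries in the fit (0.0884). The call with DNMT3b siRNA was lost on leaving out DNMT3b 3 (adjusted p = 0.0502).

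Oas3 was a scarce transcript, with 8, 2 and 18 reads after DNMT3a siRNA and 25, 17 and 14 after DNMT3b siRNA, against 49, 21 and 80 in controls. The 3 DNMT3a siRNA libraries (0.260, 0.0606 and 0.589 CPM) were all below the controls (1.37, 0.683 and 2.96 CPM), and the DNMT3b siRNA libraries (0.769, 0.550 and 0.491 CPM) overlapped them. The log2 fold change was -2.45 ± 0.67 (adjusted p = 0.0457) with DNMT3a siRNA and -1.44 ± 0.62 (adjusted p = 0.208) with DNMT3b siRNA. The fall with DNMT3a siRNA lost its call on leaving out any of DNMT3a 1 (adjusted p = 0.147), DNMT3a 2 (0.0859), DNMT3b 1 (0.0656), DNMT3b 2 (0.0775), DNMT3b 3 (0.0738), control 1 (0.0740) or control 3 (0.140). It also lost it with no filter on low counts (adjusted p = 0.0948), in limma-voom (0.0615) and with only the DNMT3a siRNA and control libraries in the fit (0.111).

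All 3 libraries lay above all controls for 1 member, Ifi27 (14.1% of all tested genes), and below for 1 member, Oas3 (12.6%). Libraries of the same number in the DNMT3a siRNA and control groups deviated together across genes, so the comparison was also fitted with the number as a block. Oas3 (-2.44 ± 0.48, adjusted p = 0.00801) and Ifi27 (0.57 ± 0.14, adjusted p = 0.0276) passed there too. Ddx58, the cytoplasmic RNA sensor RIG-I, fell in that fit (-0.48 ± 0.13, adjusted p = 0.0347) but not without the block (-0.49 ± 0.33, adjusted p = 0.431). The block fit thus called 2 members lower and 1 higher, against 7.52% and 6.79% of all genes. Within the library numbers, 15 members were lower with DNMT3a siRNA in 3 of 3, against 25.1% of all genes.

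With DNMT3b siRNA the fold change lay below 0 for 41 of 42 members, but only 1 member, Ifi27, passed the test, and it rose. A fall was called for 0 members, against 2.12% of all genes, and a rise for 1, against 3.52%. edgeR gave an unadjusted p under 0.05 to 6 of 42 members, 5 of them lower, against 3556 of 16561 genes, 1753 of them lower. With DESeq2 a second gene, Oas2, passed and fell, and limma-voom called only Ifi27. The median log2 fold change over members was -1.11, against 0.00 over all genes, and 26 members were at least 2-fold lower. DNMT3b 1 lay above control 2 for 41 of 42 members, so the groups overlapped for all but 2 of them. All 3 DNMT3b siRNA libraries lay below all controls for 1 member, Mx1 (12.3% of all genes), and above for 1, Ifi27 (13.8%). Leaving out control 3 moved the median to -0.73, and leaving out DNMT3b 1 moved it to -1.66. Without control 2 a second member, Tlr3, fell (-1.63, adjusted p = 0.0464), and without DNMT3b 3 none passed. With all 3 libraries numbered 2 left out, 15 members fell and 1 rose, against 543 genes that fell and 723 that rose among 16554 tested. Control 2, left out there, was the lowest control for 41 of 42 members and lay below DNMT3b 1 for 41. That choice removed overlap in these same genes, so its calls are no separate support. In all 3 DNMT3b siRNA libraries the summed leukocyte markers ran from 27.5 to 61.6 CPM, against 28.8 to 80.8 CPM in controls.

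Set against DNMT3b siRNA, DNMT3a siRNA gave a fold change above 0 for 40 of 42 members, with a median log2 fold change of 0.86 against 0.01 over all genes, and 0 members passed the test. Among all genes 4.47% were called higher and 5.08% lower. edgeR gave an unadjusted p under 0.05 to 1 member, Mx1, against 4188 of 16561 genes. DESeq2 called Mx1 (adjusted p = 0.0291), and limma-voom called 0 members. The 2 groups overlapped for every member, whereas 16.2% of all genes had all 3 DNMT3a siRNA libraries above and 16.1% below. The comparisons with control share the same 3 control libraries. Leaving out DNMT3a 2 gave a call to Mx1 (2.12, adjusted p = 0.0240), whose adjusted p ran from 0.0178 to 0.359 over all alternatives. With all 3 libraries numbered 2 left out, 7 members were called higher and 0 lower, against 704 genes higher and 825 lower among 16554 tested. DNMT3a 2, left out there, was the lowest DNMT3a library for 42 of 42 members, so this choice also removed overlap.

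**Figure D4:**
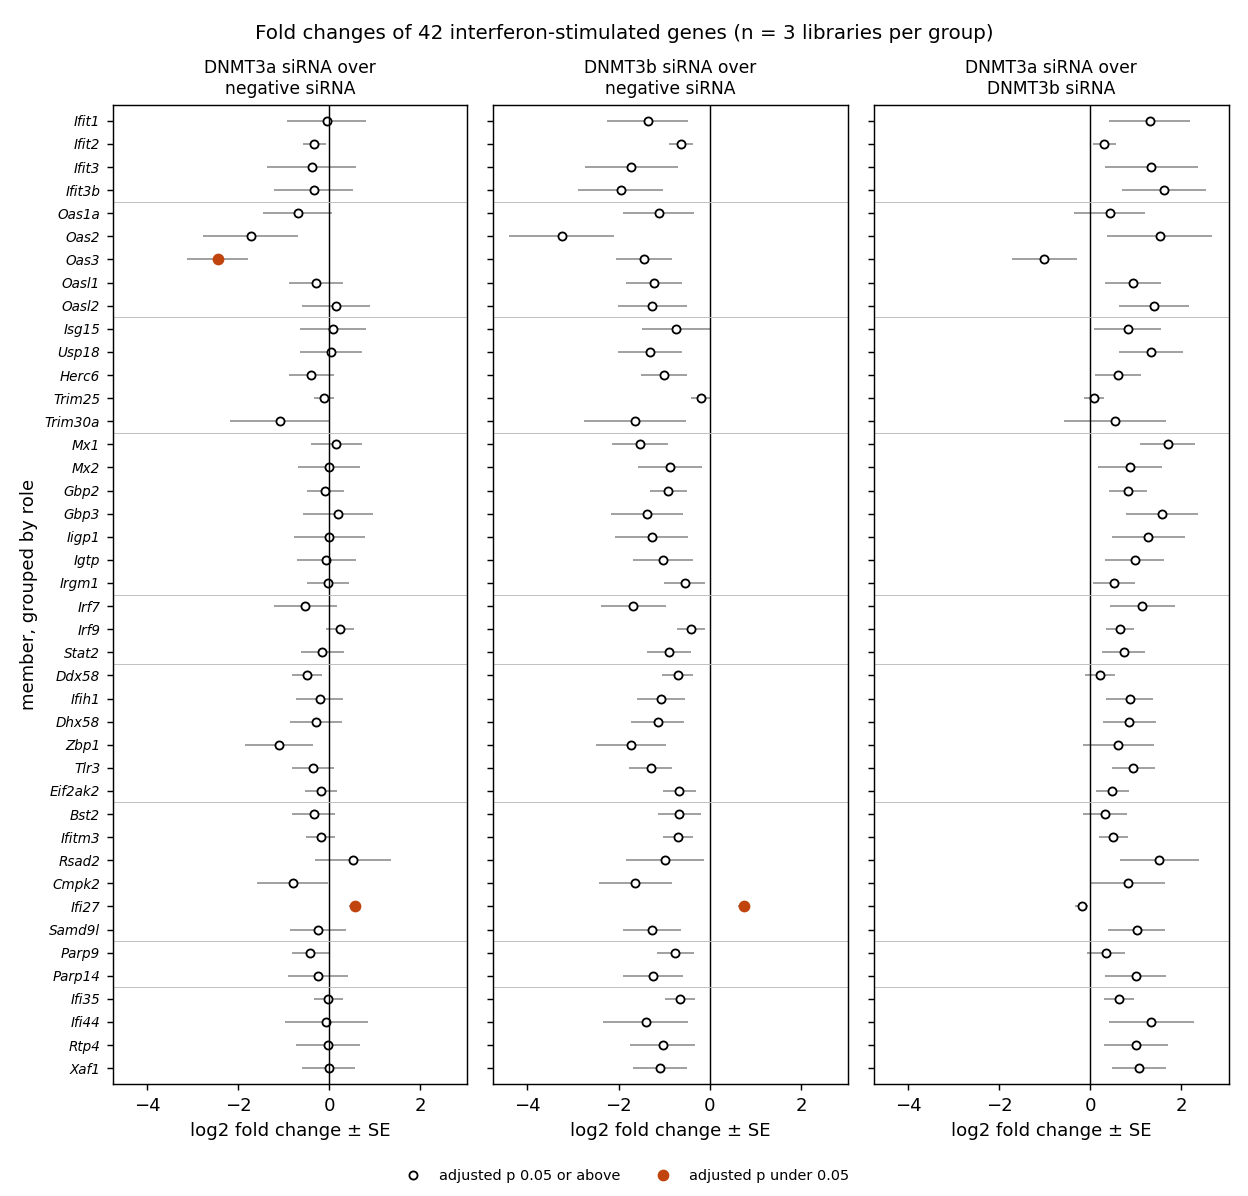
Log2 fold change ± SE (x axis) of the 42 members in the 3 comparisons, 3 libraries per group, ordered by role; filled points passed an adjusted p of 0.05. Only Oas3 and Ifi27 with DNMT3a siRNA and Ifi27 with DNMT3b siRNA are filled, and the DNMT3b siRNA points lie left of 0 except Ifi27.

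The transcription factors of the response were among the members that did not pass. Irf7, which drives the genes of interferon alpha, had 57.3, 19.1 and 58.7 CPM after DNMT3a siRNA and 33.8, 11.2 and 16.1 CPM after DNMT3b siRNA, against 66.7, 21.9 and 107 CPM in controls. Its log2 fold changes were -0.53 ± 0.69 (adjusted p = 0.712) with DNMT3a siRNA and -1.67 ± 0.71 (adjusted p = 0.234) with DNMT3b siRNA. The low libraries of each group came below the high ones of every other group. Irf9, the DNA-binding part of the ISRE-binding complex, had 105, 57.1 and 104 CPM after DNMT3a siRNA and 77.4, 42.3 and 50.5 CPM after DNMT3b siRNA, against 80.7, 56.7 and 90.1 CPM in controls. It was higher within each library number with DNMT3a siRNA, by 0.23 ± 0.31 (adjusted p = 0.722), and its difference with DNMT3b siRNA was -0.42 ± 0.31 (adjusted p = 0.486). Stat2, its partner, had 116, 48.0 and 124 CPM after DNMT3a siRNA and 79.8, 42.04 and 51.2 CPM after DNMT3b siRNA, against 113, 56.5 and 151 CPM in controls.

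Of the 6 nucleic acid sensors, 0 passed in any comparison in the edgeR fit of all libraries without the block. There 1, Tlr3, had an unadjusted p under 0.05, with DNMT3b siRNA. With the libraries numbered 2 left out, Tlr3, Ddx58, Eif2ak2, Dhx58 and Ifih1 fell with DNMT3b siRNA (adjusted p from 0.00701 to 0.0480). Control 2, left out there, was the lowest control for each of these genes and lay below DNMT3b 1. That choice removed overlap, so these calls are no separate support. Ddx58 had 139, 77.6 and 135 CPM after DNMT3a siRNA and 134, 78.8 and 90.7 CPM after DNMT3b siRNA, against 195, 102 and 197 CPM in controls. It was lower in DNMT3a siRNA than in control within each number, and its log2 fold change with DNMT3b siRNA was -0.70 ± 0.34 (adjusted p = 0.276). Ifih1 (MDA5), which senses long double-stranded RNA, had 55.4, 24.2 and 53.8 CPM after DNMT3a siRNA and 37.1, 15.4 and 20.9 CPM after DNMT3b siRNA, against 57.6, 23.9 and 72.5 CPM in controls. Its log2 fold changes were -0.21 ± 0.52 (adjusted p = 0.860) and -1.07 ± 0.52 (adjusted p = 0.295) with DNMT3a and DNMT3b siRNA. Eif2ak2 (PKR), a kinase that halts translation on binding such RNA, had 136, 72.8 and 128 CPM after DNMT3a siRNA and 107, 61.9 and 71.5 CPM after DNMT3b siRNA, against 151, 75.1 and 155 CPM in controls. Its log2 fold changes were -0.18 ± 0.35 (adjusted p = 0.819) with DNMT3a siRNA and -0.67 ± 0.36 (adjusted p = 0.333) with DNMT3b siRNA. Dhx58 (LGP2), Zbp1 and the endosomal sensor Tlr3 had log2 fold changes from -1.11 to -0.29 with DNMT3a siRNA and from -1.73 to -1.14 with DNMT3b siRNA.

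The 5 genes of the oligoadenylate synthetase family made up some of the widest differences. Oas2 had 3.47, 0.667 and 4.55 CPM after DNMT3a siRNA and 2.18, 0.324 and 0.456 CPM after DNMT3b siRNA, against 7.80, 1.53 and 19.4 CPM in controls. The 3 groups overlapped, since control 2 lay below 2 of the 3 DNMT3a siRNA libraries and below DNMT3b 1. Its log2 fold changes were -1.72 ± 1.04 (adjusted p = 0.370) with DNMT3a siRNA and -3.24 ± 1.15 (adjusted p = 0.158) with DNMT3b siRNA, the lowest of any member in that comparison. DESeq2 called the difference with DNMT3b siRNA (-3.28, adjusted p = 0.0356), and over all alternatives its adjusted p ran from 0.0319 to 0.413. Oas1a, Oasl1 and Oasl2 had log2 fold changes of -0.70, -0.28 and 0.14 with DNMT3a siRNA and -1.12, -1.22 and -1.26 with DNMT3b siRNA, and none passed.

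The IFIT proteins bind the ends of foreign RNA. Their 4 genes had a median log2 fold change of -0.33 with DNMT3a siRNA and -1.54 with DNMT3b siRNA. In the edgeR fit of all 9 libraries without the block 0 passed, and 1 (Ifit2) had an unadjusted p under 0.05 with DNMT3b siRNA. With the libraries numbered 2 left out, Ifit2 and Ifit3b fell with DNMT3b siRNA (adjusted p = 0.0225 and 0.00118). Control 2, their lowest control, was left out there and lay below DNMT3b 1 for both, so these calls are no separate support. Ifit1 had 123, 25.1 and 98.2 CPM after DNMT3a siRNA and 63.2, 12.3 and 23.9 CPM after DNMT3b siRNA, against 110.2, 22.5 and 124 CPM in controls. Ifit3 had 30.3, 5.21 and 32.8 CPM after DNMT3a siRNA and 17.0, 3.75 and 6.13 CPM after DNMT3b siRNA, against 27.6, 5.27 and 56.2 CPM in controls. The DNMT3a siRNA and control libraries of the same number stood close to each other for both genes, except library 3 of Ifit3. Ifit2 was the steadiest of the 4, between 25.5 and 58.3 CPM over the 9 libraries. The promoter window of Ifit2 held no ISRE core match, whereas those of Ifit1, Ifit3 and Ifit3b did. A match outside that window would be missed, and a link to the spread was not tested.

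Isg15, the ubiquitin-like modifier, had 89.8, 20.5 and 82.9 CPM after DNMT3a siRNA and 65.3, 18.4 and 25.4 CPM after DNMT3b siRNA, against 69.0, 25.2 and 88.7 CPM in controls. Usp18, which removes Isg15 from proteins and dampens the interferon receptor, had 65.9, 19.7 and 59.3 CPM after DNMT3a siRNA and 32.7, 9.03 and 15.3 CPM after DNMT3b siRNA, against 54.6, 18.3 and 68.6 CPM in controls. Its log2 fold changes were 0.03 ± 0.68 (adjusted p = 0.986) with DNMT3a siRNA, -1.31 ± 0.70 (adjusted p = 0.338) with DNMT3b siRNA and 1.34 ± 0.70 (adjusted p = 0.285) between the knockdowns. Herc6, the mouse ligase for Isg15, had log2 fold changes of -0.39 ± 0.50 (adjusted p = 0.702) with DNMT3a siRNA and -1.003 ± 0.51 (adjusted p = 0.304) with DNMT3b siRNA. Herc6 fell with DNMT3b siRNA once the libraries numbered 2 were left out (-1.16, adjusted p = 0.0491). Control 2, its lowest control (8.78 CPM), was left out there and lay below DNMT3b 1 (15.6 CPM). That call is thus no separate support. The TRIM proteins Trim25, a ubiquitin ligase that acts on RIG-I, and Trim30a spread unequally. Trim25 stayed between 80.6 and 136 CPM over the 9 libraries, and Trim30a ran from 2.85 to 67.4 CPM.

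Mx1, a dynamin-like GTPase that blocks influenza viruses, was the member with the smallest adjusted p between the knockdowns. It had 3.15, 0.636 and 2.06 CPM after DNMT3a siRNA and 0.707, 0.453 and 0.631 CPM after DNMT3b siRNA, against 1.67, 0.748 and 2.85 CPM in controls. The log2 fold change was 0.15 ± 0.56 (adjusted p = 0.908) with DNMT3a siRNA, -1.54 ± 0.62 (adjusted p = 0.182) with DNMT3b siRNA and 1.69 ± 0.61 (adjusted p = 0.118) for DNMT3a over DNMT3b siRNA. It rests on few reads, 14 to 97 per library. The other 6 GTPases, Mx2, Gbp2, Gbp3, Iigp1, Igtp and Irgm1, had log2 fold changes from -0.08 to 0.20 with DNMT3a siRNA and from -1.38 to -0.55 with DNMT3b siRNA. Irgm1, an immunity-related GTPase of autophagy, was the most abundant of them, with 372, 138 and 290.0 CPM after DNMT3a siRNA and 247, 143 and 166 CPM after DNMT3b siRNA, against 346, 143 and 328 CPM in controls.

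Among the membrane and mitochondrial effectors, Ifitm3 had 335, 178 and 350.4 CPM after DNMT3a siRNA and 262, 153 and 192 CPM after DNMT3b siRNA, against 346, 231 and 406 CPM in controls. Its log2 fold changes were -0.19 ± 0.32 (adjusted p = 0.783) and -0.69 ± 0.32 (adjusted p = 0.260) with DNMT3a and DNMT3b siRNA. Bst2 had 209.6, 82.8 and 205 CPM after DNMT3a siRNA and 193, 90.1 and 115 CPM after DNMT3b siRNA, against 229, 119 and 285 CPM in controls. Rsad2 (viperin), which makes a nucleotide that stops viral RNA synthesis, had 43.3, 8.85 and 42.01 CPM after DNMT3a siRNA and 17.7, 5.31 and 9.74 CPM after DNMT3b siRNA, against 23.9, 5.07 and 36.6 CPM in controls. It was higher within each library number with DNMT3a siRNA, by 0.52 ± 0.83 (adjusted p = 0.768), and its difference with DNMT3b siRNA was -0.99 ± 0.86 (adjusted p = 0.560). Cmpk2, a nucleotide kinase and the neighbour of Rsad2, and Samd9l had log2 fold changes of -0.81 and -0.25 with DNMT3a siRNA and -1.63 and -1.27 with DNMT3b siRNA. The ADP-ribosyltransferases Parp9 and Parp14 and the induced genes Ifi35, Ifi44, Rtp4 and Xaf1 had log2 fold changes from -0.41 to -0.01 with DNMT3a siRNA and from -1.41 to -0.65 with DNMT3b siRNA, and none passed.

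**Figure D5:**
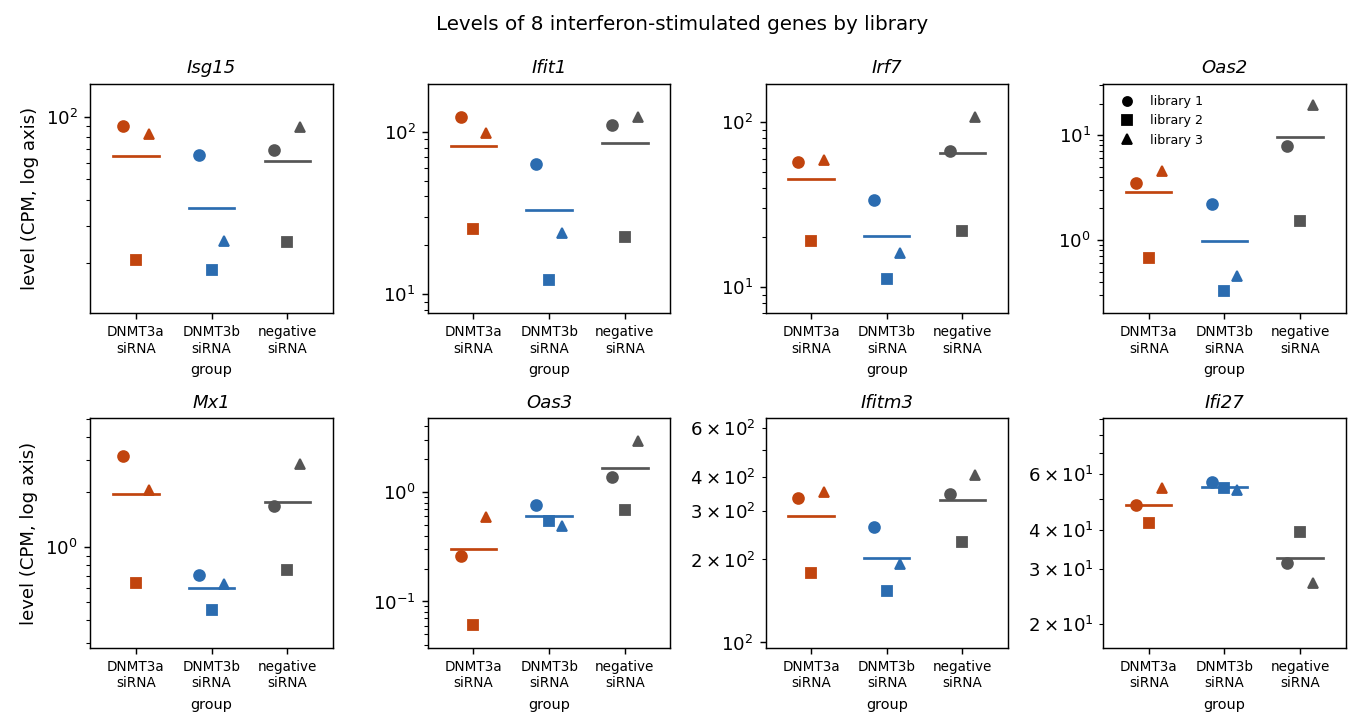
Level (CPM, log axis) of 8 members in each library; symbols give the library number, colours the group and horizontal lines the mean of 3 libraries. Library 2 is the lowest in the DNMT3a siRNA, DNMT3b siRNA and control groups for Isg15, Ifit1, Irf7, Oas2, Mx1 and Ifitm3, and only Ifi27 has all knockdown libraries above all controls.

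Members with and without an ISRE core match had overlapping fold changes. With DNMT3a siRNA the median log2 fold change was -0.18 over 18 members with a match and -0.25 over 13 with an entry but no match. With DNMT3b siRNA the medians were -1.01 and -1.22, with ranges that overlapped.

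Among genes of the interferon receptors and of nucleic acid sensing, a few fell. Ifnar2, a chain of the type I receptor, had 17.8, 22.1 and 19.9 CPM after DNMT3a siRNA and 33.1, 35.3 and 34.1 CPM after DNMT3b siRNA, against 31.7, 39.4 and 39.5 CPM in controls. It fell with DNMT3a siRNA by 0.89 on the log2 scale (SE 0.11, adjusted p = 9.45e-04) and was lower than after DNMT3b siRNA (-0.78 ± 0.11, adjusted p = 0.00287), below every library of both other groups. The other 5 receptor genes did not pass with either siRNA. Of 9 genes of nucleic acid sensing tested, 3 fell with DNMT3a siRNA in edgeR, against 5.22% of all genes. Tmem173 (STING), which relays the sensing of DNA, fell (-0.57 ± 0.12, adjusted p = 0.0157). So did Myd88, an adaptor of Toll-like receptors (-0.37 ± 0.09, adjusted p = 0.0246), and Aim2, a DNA sensor of inflammasomes (-0.77 ± 0.20, adjusted p = 0.0376). With DNMT3b siRNA 1 of 9 fell, Aim2 (-1.16 ± 0.21, adjusted p = 0.00909). Leukocyte markers were lower in the same DNMT3a siRNA libraries, at 11.98 to 26.0 CPM against 28.8 to 80.8 CPM in controls, and so were 4 of 10 fibroblast and 4 of 10 epicardial markers. The part of these cells in the falls was not tested.

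Signalling kinases and STATs (7 tested), IRF factors (8) and negative regulators (12) had 0 calls with either siRNA in the edgeR fit of all libraries without the block. At an unadjusted p under 0.05 there were 2, 1 and 1 of them with DNMT3a siRNA and 1, 0 and 2 with DNMT3b siRNA. Among all 16561 genes tested there were 4127 and 3556. With the block, the kinase Tbk1 (adjusted p = 0.0428) and the phosphatase Ptpn6 (adjusted p = 0.0240), a gene of leukocytes, fell with DNMT3a siRNA.

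A further 66 interferon-induced genes were tested beside the members. With DNMT3a siRNA 1 fell, against 5.22% of all genes (6 with the block, against 7.52%), 0 rose, 51 lay below 0 and the median log2 fold change was -0.26. With DNMT3b siRNA 1 fell, against 2.12% of all genes, 0 rose, 63 lay below 0 and the median was -0.68. At an unadjusted p under 0.05 in edgeR 19 of the 66 were lower, against 1753 of 16561 genes. The gene that fell with DNMT3a siRNA was Ifitm2, a relative of Ifitm3, with 69.0, 66.5 and 70.3 CPM after DNMT3a siRNA and 83.1, 83.5 and 84.6 CPM after DNMT3b siRNA, against 89.8, 95.6 and 91.2 CPM in controls (-0.43 ± 0.07, adjusted p = 0.00291). The gene that fell with DNMT3b siRNA was Trim12c, a TRIM family gene, with 24.3, 16.6 and 19.2 CPM after DNMT3a siRNA and 6.73, 7.35 and 7.96 CPM after DNMT3b siRNA, against 21.5, 16.5 and 17.9 CPM in controls (-1.34 ± 0.16, adjusted p = 9.45e-04). Control 2 was the highest control for Ifitm2, the reverse of 41 members. DNMT3a siRNA left Trim12c higher than DNMT3b siRNA did (1.45 ± 0.16, adjusted p = 7.29e-04) and Ifitm2 lower (-0.29 ± 0.07, adjusted p = 0.0232).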

How the data were processed

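RNA was measured by poly(A) RNA sequencing in 9 libraries, 3 per siRNA group. The authors deposited whole-number read counts per Ensembl gene, not normalised. The submitters' processing notes name FastQC, TopHat2, HTSeq and mm10/GRCm38, without roles or versions. The annotation release and strand setting used for counting were not given in the sources used here. Lines of reads assigned to no gene (49.2% to 56.2% of each table), mostly not uniquely placed, were left out, so genes with near-identical copies may be undercounted.

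Symbols came from GENCODE M21, which named 42548 of 43629 identifiers. A filter on low counts (filterByExpr, minimum count 10 and minimum total 15) kept 16561 genes, and libraries were scaled by TMM. All libraries entered 1 edgeR 4.0.16 quasi-likelihood fit (R 4.3.3, robust, 6 residual degrees of freedom), two-sided, with Benjamini-Hochberg adjustment over all genes tested and a threshold of 0.05. The script was tested on simulated data. CPM are TMM-scaled, each standard error was derived from the F statistic, and 27852412 to 35896018 counted reads per library bound the precision of scarce genes. DESeq2 1.42.0, limma-voom (limma 3.58.1), other scalings, filters and omitted libraries were tried as alternatives. The members and lists were chosen with earlier results of these data known. Members past the threshold and 15 others chosen by name were given values in every library, and the 12 with the smallest adjusted p full statistics. Further genes were named with their values already seen.

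Deviations from group means correlated across genes between same-numbered DNMT3a siRNA and control libraries (r = 0.434, 0.513 and 0.459). Each exceeded 0.1, so these libraries were read as paired, from the data and not from the labels. No 2 libraries of a group agreed within sampling noise.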

Additional observations from a re-analysis of the deposited data

How the results depend on the processing

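The calls rest on few libraries, and depth limits Oas3 and Mx1, with 2 to 97 reads per library. Members called with DNMT3a siRNA numbered 2 as reported, 1 with no filter, with a filter of 1 CPM in 3 libraries or with limma-voom, 0 with only the 2 groups compared, and 0 to 2 with each library left out. All genes called there fell to 946 with only the 2 groups compared and ran from 868 to 1839 with each library left out. Scaling by library size alone split those calls into 1019 higher and 649 lower, against 807 and 864 as reported. Members called with DNMT3b siRNA numbered 1 as reported, 2 with DESeq2, 16 (15 lower) without all libraries numbered 2, and 0 to 2 with each library left out; all genes numbered 934, 1715 with DESeq2 and 287 to 1781 with each library left out. Between the knockdowns, members called numbered 0 as reported, 1 with DESeq2, 7 without all libraries numbered 2, and 0 to 1 with each library left out; all genes numbered 1582, and 524 to 1962 with each library left out. Library numbers did not pair the DNMT3b siRNA libraries with controls (r = 0.212, 0.101 and 0.0334) or with DNMT3a siRNA libraries (0.161, 0.0776 and 0.0414), and not every library correlated best with its own number. With the replicate block anyway, 18 members (17 lower) and 1801 genes (821 lower) were called with DNMT3b siRNA, and 14 members (all higher) and 2513 genes (1132 higher) between the knockdowns. That fit with DNMT3b siRNA also called lower 25 of 66 other interferon-induced genes, 3 of 17 leukocyte markers, 2 of 7 signalling kinases and STATs and 3 of 12 negative regulators, of which 1 more was higher. Within the numbers, 38 members (3796 of 16561 genes) were lower in 3 of 3 with DNMT3b siRNA, and 31 members (4005 genes) were higher in 3 of 3 with DNMT3a than with DNMT3b siRNA. Some members without a call changed sign with DNMT3a siRNA as each library was left out: Mx1 ran from -0.38 to 0.67, Irf7 from -0.94 to 0.019, Ifitm3 from -0.39 to 0.049, Usp18 from -0.35 to 0.40, Ifih1 from -0.55 to 0.12 and Eif2ak2 from -0.45 to 0.040. The cause was not tested in any of these.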
